A study of Mus musculus with 12 samples.

Results

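The iron storage and transport genes described here were 8 mouse genes, chosen by name: Fth1 and Ftl1, which encode the heavy and light chains of ferritin, Tfrc (transferrin receptor 1), Slc40a1 (ferroportin), Slc11a1 (NRAMP1), Slc11a2 (DMT1), Slc39a14 (ZIP14) and Ireb2 (iron regulatory protein 2). They are 8 of the 41709 genes in the deposited tables, and each was counted in every one of the 12 libraries. RNA sequencing was performed on MHCII+ dendritic cells (DC) that were grown from bone marrow with GM-CSF for 10 days and enriched with immunomagnetic beads. All donor mice carried the floxed allele of Itgb2 (the gene of CD18, the shared beta chain of the beta2 integrins) on both chromosomes, with exon 3 flanked by loxP sites, from the embryonic stem cell clone JM8, and the age of the mice is not given in the sources used here. CD18fl/fl cells had no Cre, whereas the CD18CD11c cKO cells (cKO) came from mice with Cre under the CD11c promoter, which is active in DC and in part of the macrophages, so deletion depends on how far that promoter acted in culture. Cells of either genotype were left unstimulated or received lipopolysaccharide (LPS, a bacterial cell wall component that binds Toll-like receptor 4) at 100 ng/mL for 24 h per the labels, giving 4 groups of 3 libraries, and the labels do not say whether the 3 came from separate mice or cultures, so p-values measure the spread between these libraries, which may be technical.

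Cells import iron bound to transferrin through transferrin receptor 1, move it out of endosomes through DMT1 or, in phagocytes, NRAMP1, store it inside ferritin shells of heavy chains with ferroxidase activity and light chains that help form the mineral core, and release it through ferroportin, the known cellular iron exporter. ZIP14 imports iron that is not bound to transferrin. The iron regulatory proteins, of which Ireb2 encodes one, bind hairpins called iron-responsive elements when iron is scarce: bound at the 5′ end of an mRNA they block its translation, and bound in the 3′ UTR they protect the mRNA from decay. Macrophages and DC are known to change ferritin, transferrin receptor and ferroportin during inflammation, which lowers the iron that microbes can reach.

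The iron-responsive elements are shown first because they are the sequences through which several of these mRNAs are regulated after transcription, a step that read counts cover only in part. A hairpin was searched for on the sense strand of all annotated UTRs of GRCm39 as the letters CNNNNNCAGTGN, followed by 5 bases able to pair with the 5 bases before the loop (G with T allowed), and the loop CAGTGN is given in capitals within 29 bases. Among the 8 genes 4 held at least 1 match, and the other 4 (Slc11a1, Slc11a2, Slc39a14 and Ireb2) held none, which says only that these letters are not in the annotated windows. Over all genes, 0.225% of those with a 5′ UTR and 0.778% of those with a 3′ UTR held a match, and a match is a description, not evidence of binding. The 5′ UTR matches lay at chr19:9960096-9960124 (plus strand) in 17 of 18 protein-coding transcripts of Fth1, at chr7:45109203-45109231 (minus strand) in 6 of 7 of Ftl1 and at chr1:45964625-45964653 (minus strand) in 5 of 9 of Slc40a1. The 4 matches of Tfrc lay in the 3′ UTR on the plus strand at chr16:32450037-32450065, chr16:32450416-32450444, chr16:32450481-32450509 and chr16:32450528-32450556.
Fth1, 5′ UTR: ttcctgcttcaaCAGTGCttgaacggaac
Ftl1, 5′ UTR: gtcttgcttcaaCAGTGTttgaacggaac
Slc40a1, 5′ UTR: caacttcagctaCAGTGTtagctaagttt
Tfrc, 3′ UTR, at 32450037: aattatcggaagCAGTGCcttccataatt
Tfrc, 3′ UTR, at 32450416: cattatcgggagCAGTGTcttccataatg
Tfrc, 3′ UTR, at 32450481: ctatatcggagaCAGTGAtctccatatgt
Tfrc, 3′ UTR, at 32450528: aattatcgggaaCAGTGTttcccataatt
The values of these 4 genes below can be read beside the place of their matches: 5′ for the ferritin chains and the exporter, 3′ for the transferrin receptor. Every base of the arm had to pair, so the search would miss a hairpin with an unpaired base there. Slc11a2 and the other genes without a match may therefore still carry an element.

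In GRCm39 the genes themselves lie at chr19:9957962-9962462 (Fth1, plus strand), chr7:45107368-45109308 (Ftl1, minus), chr16:32427738-32451612 (Tfrc, plus), chr1:45947228-45965683 (Slc40a1, minus), chr1:74414354-74425221 (Slc11a1, plus), chr15:100285779-100322953 (Slc11a2, minus), chr14:70540918-70588874 (Slc39a14, minus) and chr9:54771073-54819814 (Ireb2, plus). Ferritin genes have many processed copies, and this differed between the chains: the Ftl1 transcript of 969 bases matched 45 other loci, 22 of them over at least 80% of its length, and 652 of its 911 windows of 59 bases (71.6%) occurred elsewhere in the genome without a mismatch. For the Fth1 transcript of 1551 bases, 18 other loci matched in part and 52 of 1493 windows (3.48%) occurred elsewhere. In the tables, 54.3 to 59.1% of the reads of Ftl1 were assigned uniquely, against 100% for the other 7 genes, so the level of Ftl1 includes reads that could have come from a copy. Of the 9 table rows named as ferritin genes, the pseudogene Ftl1-ps1 held 486 to 1966 reads per library and the 6 Fthl17 genes held 0 in every library, which allows up to 3 reads.

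The libraries held 29689149 to 34037178 gene reads. Replicate 3 of every group stood apart: the chi-square per degree of freedom between libraries of 1 group was 43.5 to 139 for replicates 1 and 2 and 362 to 542 for pairs with replicate 3, and the summed B cell markers were at 0.356 to 0.561 CPM (reads of a gene scaled to a common library size) in the replicates 3 and 5.43 to 93.8 CPM in the others. Same-numbered libraries deviated together, but replicates 1 and 2 also did so across numbers, so a match of these 2 numbers is not shown. The fit with the replicate number as a block is given wherever it changed a call. Values of replicates 1 and 2 alone are given for the LPS response of CD18fl/fl cells. For the other comparisons that setting is given only as counts of calls and as values that turned sign. Itgb2, the targeted gene, was at 382, 420 and 379 CPM in unstimulated CD18fl/fl cells and at 120, 163 and 189 CPM in cKO cells, and after LPS at 167, 171 and 266.5 against 114, 89.7 and 119 CPM. Itgb2 was thus lower in cKO cells in both conditions with no overlap (adjusted p = 0.00392 unstimulated and 0.0201 with LPS in the blocked edgeR quasi-likelihood fit, Benjamini-Hochberg adjustment, and 0.0887 and 0.428 without the block). All 10 DC markers had reads in every group, and their summed level of 10282 to 21377 CPM was the highest of the marker lists in every library. The 11 macrophage markers summed to 1695 to 2266 CPM without LPS and to 471 to 1087.5 CPM with it. The DC list holds the MHC class II genes H2-Ab1 and Cd74, and the cells were selected for MHCII. These sums therefore do not compare the content of cell types. Erythroid markers summed to at most 23.6 CPM, T cell markers to 0.225 to 6.69 CPM, and mast cell and basophil markers to 15.6 to 117 CPM in the replicates 3 and at most 11.3 CPM in the others.

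Per transcript length, the ferritin chains ranked among the most abundant mRNAs of these cells. In TPM, a share of all transcripts that accounts for their length, Ftl1 reached 33797 ± 13424.5 (mean ± SD, n = 3 in all groups) and Fth1 19964 ± 7705 in unstimulated CD18fl/fl cells, the 2nd and 4th highest means of all genes. The other 6 genes lay far lower on the TPM scale: Slc11a1 at 55.7 ± 18.9, Tfrc at 28.2 ± 7.78, Slc40a1 at 15.2 ± 8.93, Ireb2 at 11.6 ± 1.84, Slc11a2 at 7.49 ± 1.88 and Slc39a14 at 3.87 ± 2.06 TPM. In that order the TPM ranges of several neighbours overlapped across libraries, among them those of Ftl1 and Fth1 and those of Slc40a1 and Ireb2. Within each of these libraries Ftl1 was above Fth1, but 54.7 to 57.8% of the Ftl1 reads in them were assigned uniquely. The order of the ferritin pair by TPM therefore counts reads that could have come from a copy and is not shown for Ftl1 alone. In the order of the replicates the TPM were 23965.5, 28333 and 49091.5 for Ftl1 and 13598, 17765 and 28529.5 for Fth1. Slc40a1 was above Ireb2 in replicates 1 and 2 and below it in replicate 3, so the order of that pair was not shown. After LPS the order of mean TPM in CD18fl/fl cells became Ftl1 (38821 ± 5511), Fth1 (33562 ± 9094), Slc11a1 (106 ± 35.4), Slc11a2 (15.8 ± 5.26), Ireb2 (12.7 ± 2.98), Slc40a1 (8.73 ± 5.96), Tfrc (6.98 ± 0.839) and Slc39a14 (3.31 ± 1.61). By mean TPM, Tfrc thus moved from the 4th to the 7th place among the 8 genes. In LPS replicate 3 Tfrc was above Slc40a1 (7.64 against 1.97 TPM), so the order of that pair was not shown. Ftl1 was above Fth1 in LPS replicates 1 and 2 and below it in replicate 3 (42818.5 against 43584 TPM). In LPS-treated cKO cells the heavy chain had the higher mean TPM of the ferritin pair (Fth1 23084 ± 8090, Ftl1 18000.2 ± 647). The ranges overlapped, and in replicate 1 Fth1 was below Ftl1 (14917 against 17255 TPM), so this order was not shown. The other 6 genes ranged there from 1.61 ± 0.490 TPM (Slc39a14) to 42.8 ± 16.4 TPM (Slc11a1).

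**Figure D1:**
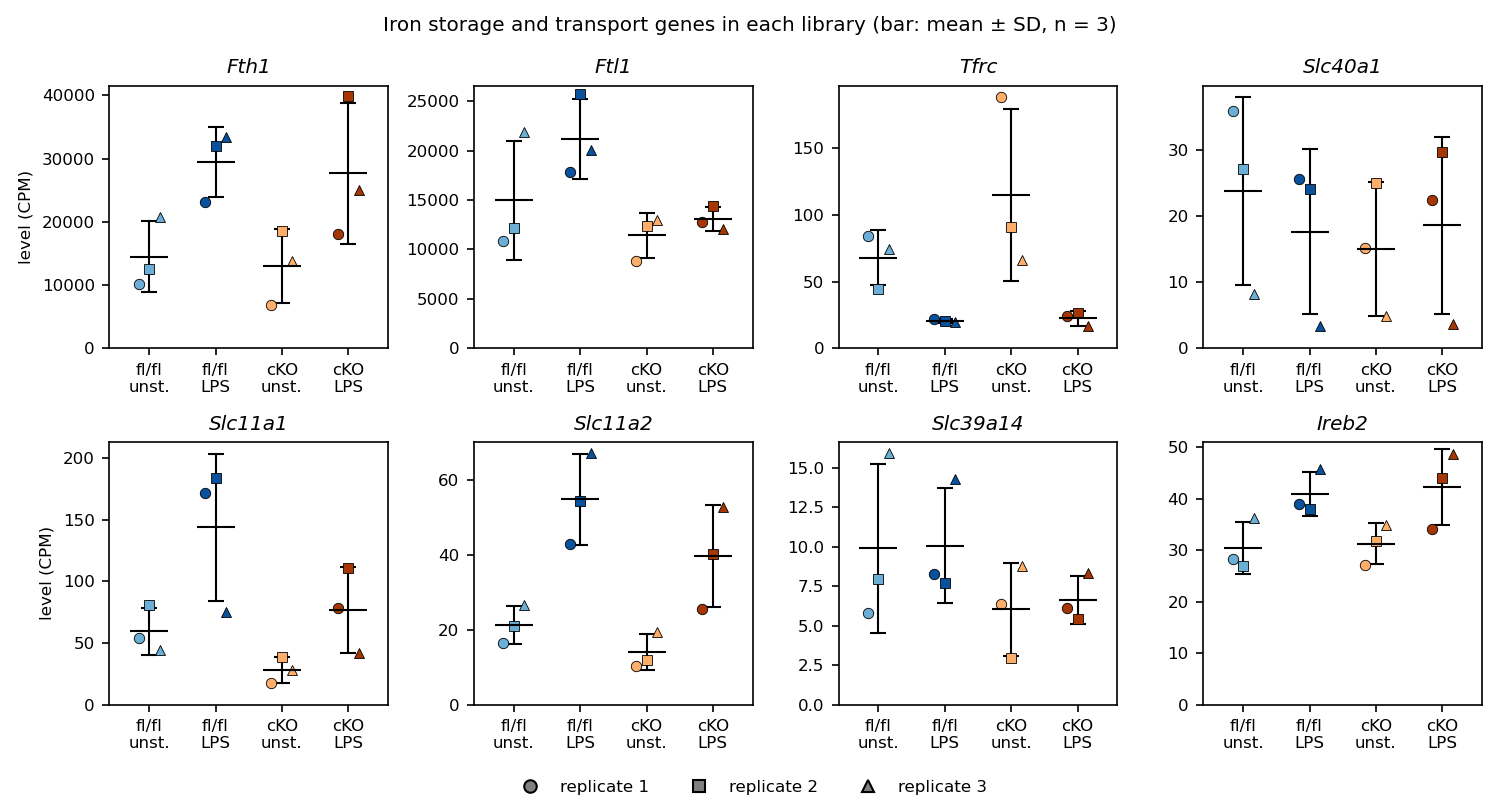
Level of each of the 8 genes (CPM, linear axes from 0) in every library of the 4 groups, with points for single libraries and a bar for the mean ± SD (n = 3). The LPS libraries of Tfrc sit between 16.5 and 26.8 CPM, under all unstimulated libraries of either genotype.

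The first question was how the iron genes responded to LPS in cells with CD18. Tfrc, the importer of transferrin-bound iron, fell and Slc11a2, the endosomal iron transporter, rose, while Fth1 and Slc11a1 were higher in all 3 pairs of libraries and passed the test with the replicate block but not without it. Of 12744 genes tested in CD18fl/fl cells, 3.89% were called at an adjusted p under 0.05 and 2 of the 8 iron genes were. With the block, 12.8% of all genes and 4 of the 8 were called. The groups of libraries did not overlap for 4 of the 8 genes (Fth1, Tfrc, Slc11a2 and Ireb2), against 29.5% of all genes tested. The median log2 fold change was 0.47 over the 8 genes and -0.02 over all genes. Scaling by total reads in place of TMM (trimmed mean of M values, which corrects library sizes for a few dominant genes) moved the all-gene median (log2) from -0.02 to -0.32 and turned the split of all calls from 263 higher and 233 lower into 143 and 304.

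Tfrc was at 84.3, 44.8 and 74.4 CPM in the 3 unstimulated CD18fl/fl libraries and at 21.7, 20.3 and 19.3 CPM in the LPS libraries. Every LPS library was under every unstimulated one, and the LPS libraries lay close together (20.4 ± 1.19 CPM). The fitted level was 3.30-fold lower (log2 fold change -1.72, SE 0.29, adjusted p = 0.0309, edgeR quasi-likelihood test with Benjamini-Hochberg adjustment, used for all adjusted p below). The call was kept in 15 of 19 alternative settings, with log2 fold changes from -2.04 to -1.54, and was lost when replicate 1 or 2 of either group was left out (adjusted p from 0.0980 to 0.143).

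Slc11a2, which carries ferrous iron across the endosomal membrane, was measured at 16.4, 20.9 and 26.6 CPM without and 42.9, 54.4 and 67.1 CPM with LPS, with no overlap. The rise was 2.58-fold (log2 fold change 1.37, SE 0.28, adjusted p = 0.0484). This call held in 13 of 19 alternatives and was lost without replicate 1 or 2 of either group (adjusted p up to 0.219), without the unstimulated replicate 3 (adjusted p just over the threshold) and with scaling by total reads (0.118). Its endosomal relative Slc11a1 was at 53.8, 80.8 and 44.0 CPM before and 172, 184 and 74.9 CPM after LPS. Read counts do not show whether the Slc11a1 protein of these mice transports iron. The replicate 3 libraries were the lowest in both groups, and the LPS replicate 3 fell below the highest unstimulated library. The difference was 1.27 on the log2 scale (SE 0.41, adjusted p = 0.128), and with the block Slc11a1 rose 2.32-fold (adjusted p = 0.0328). DESeq2 called Slc11a1 without a block (adjusted p = 0.0421), and total-read scaling ended the blocked call (0.0600).

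The ferritin heavy chain Fth1 was at 10106, 12485 and 20813 CPM without LPS and 23198, 32010 and 33387 CPM with it. The LPS libraries were all higher, although the unstimulated replicate 3 came close to the lowest of them. The log2 fold change was 1.04 (SE 0.36, adjusted p = 0.151), and the blocked fit gave a 2.12-fold rise (adjusted p = 0.0241). The light chain Ftl1, at 10872, 12165 and 21864 CPM without and 17843, 25708 and 20033 CPM with LPS, was higher in 2 of 3 pairs and its groups overlapped. Its log2 fold change of 0.51 was not called in either fit (adjusted p = 0.427, or 0.194 with the block).

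The mRNA of Ireb2, which encodes an iron regulatory protein, moved little: 28.3, 26.8 and 36.2 CPM became 39.0, 38.0 and 45.8 CPM. The groups did not overlap, but the log2 fold change was 0.43 with an adjusted p of 0.284. The exporter Slc40a1 was at 35.9, 27.2 and 8.23 CPM without and 25.6, 24.1 and 3.30 CPM with LPS, and replicate 3 was several-fold lower than the other replicates in both groups. No call was made for Slc40a1 in either fit (adjusted p = 0.173 with the block). ZIP14 mRNA (Slc39a14) ranged from 5.83 to 15.96 CPM without and from 7.70 to 14.3 CPM with LPS, a log2 fold change of 0.03. In replicates 1 and 2 alone, 6 of the 8 genes were called in CD18fl/fl cells: Fth1 (1.29, adjusted p = 0.00168), Ftl1 (0.92, 0.0108), Tfrc (-1.62), Slc11a1 (1.40), Slc11a2 (1.38) and Ireb2 (0.48, 0.0322), all as log2 fold changes. This setting was added after seeing the data and also raised the calls among the other iron and heme genes listed below from 3 to 25. The share over all genes in it was not counted, so the 6 calls cannot be set against a background.

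**Figure D2:**
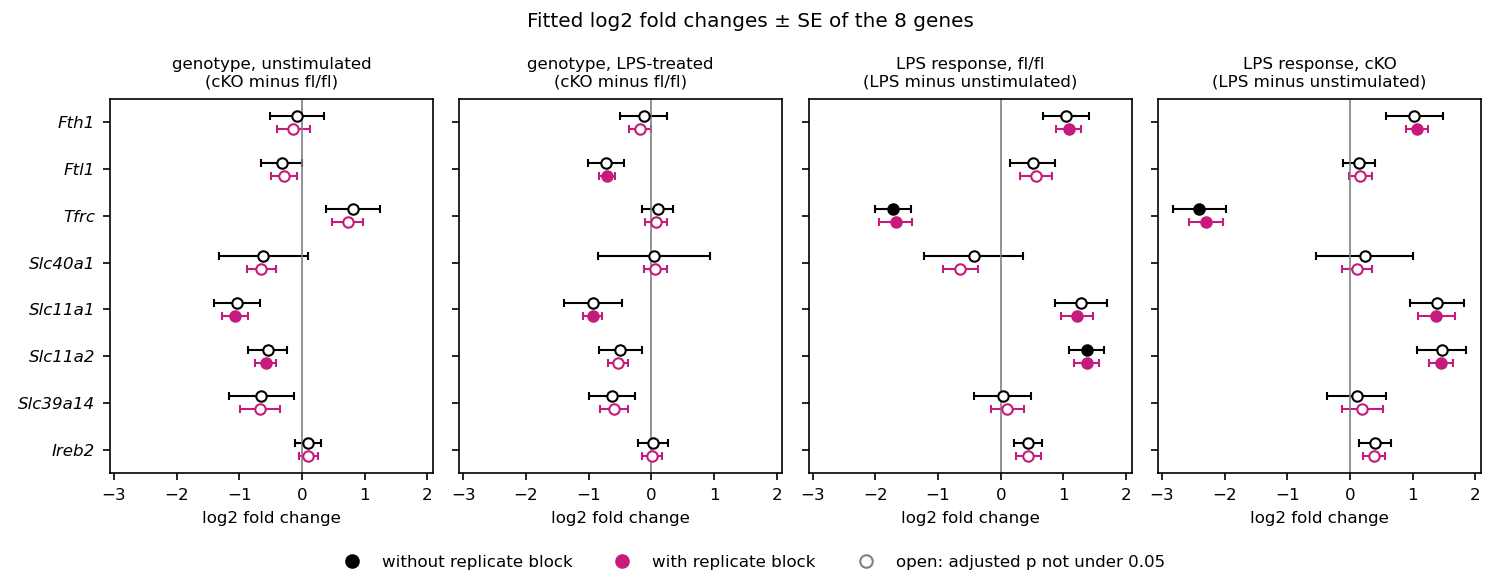
Fitted log2 fold changes ± SE of the 8 genes in the 2 genotype comparisons and the 2 LPS responses, without and with the replicate block. Tfrc lies left of 0 in both LPS responses (-1.72 and -2.41 without the block), and Slc11a1 lies left of 0 in both genotype comparisons (-1.04 and -0.93).

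In cKO cells the same question gave 1 call. Of 12687 genes tested, 3.99% were called, and of the 8 iron genes Tfrc alone was. With the block, 20.2% of all genes and 4 of the 8 (Fth1, Tfrc, Slc11a1 and Slc11a2) were called, and the libraries of 3 genes (Tfrc, Slc11a1 and Slc11a2) did not overlap, against 28.1% of all genes. The median log2 fold change was 0.31 over the 8 genes and -0.01 over all genes. Scaling by total reads moved the median of all genes from -0.01 to -0.23 and turned the split of calls from 283 higher and 223 lower into 185 and 297.

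Tfrc was at 188, 91.0 and 66.1 CPM in unstimulated cKO libraries, more widely spread than in CD18fl/fl cells, and at 23.9, 26.8 and 16.5 CPM after LPS. The fall was 5.31-fold (log2 fold change -2.41, SE 0.42, adjusted p = 0.0339) and was called in 15 of 19 alternatives with values from -2.68 to -1.89. Leaving out replicate 1 or 2 of either cKO group raised the adjusted p to between 0.0899 and 0.137. Beside this fall, the summed proliferation markers were at 734 to 984 CPM without and 475 to 714 CPM with LPS in cKO cells (3 of 8 called lower, 6 with the block) and at 229 to 436 and 225 to 375 CPM in CD18fl/fl cells (1 of 8, 2 with the block), and their part in the Tfrc values was not tested. Slc11a2 went from 10.4, 12.01 and 19.5 CPM to 25.6, 40.3 and 52.8 CPM, with every LPS library above every unstimulated one. Its log2 fold change was 1.46 (adjusted p = 0.0840), and with the block it rose 2.73-fold (adjusted p = 0.00415).

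Slc11a1 was at 17.1, 38.8 and 27.8 CPM without and 78.1, 111 and 41.5 CPM with LPS, where again the LPS replicate 3 was the lowest but here still above all unstimulated libraries. The fitted difference of 1.39 on the log2 scale missed the threshold (adjusted p = 0.124) and passed it with the block (2.60-fold higher, adjusted p = 0.0216). Fth1 was at 6892, 18505 and 13834 CPM in unstimulated and 18125, 39842 and 24990 CPM in LPS-treated cKO cells, a rise of 2.10-fold with the block (adjusted p = 0.00834) but not without it (0.251). All 3 pairs of Fth1 went up, and the groups overlapped because replicate 2 was high and replicate 1 low in both.

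Ftl1 in cKO cells was at 8838.5, 12410 and 13006 CPM without and 12801, 14430 and 12039 CPM with LPS, a log2 fold change of 0.14 (adjusted p = 0.806, or 0.566 with the block). Ireb2 was higher in all 3 pairs (27.1, 31.9 and 34.9 CPM against 34.2, 44.1 and 48.8 CPM), was not called and overlapped. Slc40a1 was at 15.2, 25.0 and 4.83 CPM and at 22.4, 29.7 and 3.72 CPM, and Slc39a14 at 6.37, 2.93 and 8.76 CPM and at 6.12, 5.43 and 8.35 CPM. Neither Slc40a1 nor Slc39a14 moved the same way in all 3 pairs. Beside these LPS responses, 4 of 10 tested macrophage markers were called lower in CD18fl/fl cells and 5 of 10 in cKO cells (6 and 7 with the block), and the part of that shift in the iron gene values was not tested. In bulk samples, fewer cells of a type and less RNA per cell cannot be told apart.

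The next question was how cKO cells, in which Itgb2 mRNA was lowered but still detected, differed from CD18fl/fl cells before LPS. In this comparison the mRNAs of Slc11a1 and its relative Slc11a2 were lower in cKO cells in all 3 pairs, and both were called only with the replicate block. Without it 0% of the 12876 genes tested and 0 of the 8 iron genes were called, although 2159 genes had an unadjusted p under 0.05 and DESeq2 called 491 higher and 47 lower. With the block 20.2% of all genes and 2 of the 8 were called, and 1 of the 8 (Slc11a1) had libraries that did not overlap, against 24.8% of all genes. With the block, scaling by total reads moved the median of all genes from -0.07 to -0.46 and turned the split of calls from 1555 higher and 1051 lower into 701 and 3881.

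Slc11a1 was at 53.8, 80.8 and 44.0 CPM in CD18fl/fl and 17.1, 38.8 and 27.8 CPM in cKO libraries, so that the highest cKO library was under the lowest CD18fl/fl one. The log2 fold change was -1.04 (SE 0.37, adjusted p = 0.242), and with the block Slc11a1 fell by 1.06 on the log2 scale (SE 0.21, adjusted p = 0.0144), or 2.09-fold. Slc11a2 overlapped between genotypes (16.4 to 26.6 against 10.4 to 19.5 CPM). With the block it was 1.49-fold lower (adjusted p = 0.0466), and a correction for transcript length together with the block ended this call (log2 fold change -0.31, adjusted p = 0.227).

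Ftl1 was lower in cKO cells in 2 of 3 pairs, with a log2 fold change of -0.32 (adjusted p = 0.657, or 0.358 with the block). With the length correction and the block this became -0.90 (adjusted p = 0.0186), and Slc11a1 remained called there at -1.17 (adjusted p = 0.0163). Fth1 differed by -0.08 (SE 0.43), since replicate 2 was higher and replicates 1 and 3 were lower in cKO cells. Tfrc had a log2 fold change of 0.82 (SE 0.43, adjusted p = 0.386, or 0.0719 with the block), with replicates 1 and 2 higher and replicate 3 lower in cKO cells. Slc40a1 was lower in all 3 pairs (-0.62, SE 0.71, adjusted p = 0.708, or 0.0848 with the block), and within each genotype its replicate 3 was the lowest library. The differences of Slc39a14 (-0.65) and Ireb2 (0.10) were within the spread of the libraries. Of the 8 proliferation markers, 4 were called higher in cKO cells with the block and 0 without it, beside 1555 of 12876 genes called higher with the block. In the order of the replicates their unstimulated sums were 436, 361 and 229 CPM in CD18fl/fl and 734, 857 and 984 CPM in cKO cells. Cycling cells are known to take up iron through Tfrc, and the part of these markers in the Tfrc values was not tested. Of 10 macrophage markers tested, 3 were called higher and 2 lower in cKO cells with the block. Of 10 DC markers 3 were called higher and 1 lower, and of 7 neutrophil markers 0 (median log2 fold change -2.24 without the block). Without the block 0 of these were called. Their part in the values of the 8 genes was not tested.

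After LPS the mRNAs of the ferritin light chain Ftl1 and of Slc11a1 were lower in cKO cells in all 3 pairs. Both were called only with the block. Ftl1 was at 17843, 25708 and 20033 CPM in CD18fl/fl and at 12801, 14430 and 12039 CPM in cKO libraries, which did not overlap. The log2 fold change was -0.72 (SE 0.28, adjusted p = 0.492), and with the block Ftl1 was 1.63-fold lower in cKO cells (log2 fold change -0.71, SE 0.13, adjusted p = 0.0225). From uniquely assigned reads, which leave out those shared with the ferritin copies, the blocked value was -0.74 (adjusted p = 0.0190). On the TPM scale, LPS-treated Ftl1 ranged from 32535 to 42818.5 in CD18fl/fl cells and from 17255 to 18425 in cKO cells. Ftl1 was the 1 of 8 iron genes without overlap in this comparison, against 17.6% of all genes.

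Slc11a1 was at 172, 184 and 74.9 CPM in LPS-treated CD18fl/fl and 78.1, 111 and 41.5 CPM in cKO cells. The groups overlapped because the CD18fl/fl replicate 3 was low. The difference was -0.93 on the log2 scale (adjusted p = 0.575), and with the block 1.91-fold (adjusted p = 0.0150). Without the block 0% of 12441 genes and 0 of the 8 were called (1212 genes had an unadjusted p under 0.05, and DESeq2 called 141 higher and 9 lower), and with it 10.1% of all genes and 2 of the 8. With the block, scaling by total reads moved the median of all genes here from -0.09 to -0.34 and turned the split from 869 higher and 393 lower into 590 and 2052.

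Slc11a2 and Slc39a14 were also lower in cKO cells in all 3 pairs, by log2 fold changes of -0.49 and -0.63, and neither was called with the block (adjusted p = 0.0758 and 0.127). For the other 4 genes the fitted genotype difference with LPS was small: -0.12 for Fth1, 0.10 for Tfrc, 0.04 for Slc40a1 and 0.02 for Ireb2. The Tfrc libraries, at 20.4 ± 1.19 CPM in CD18fl/fl and 22.4 ± 5.33 CPM in cKO cells, overlapped after LPS. Over the 8 genes the median genotype difference was -0.31 with LPS and -0.44 without, beside -0.11 and -0.05 over all genes.

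Whether the LPS response itself differed between genotypes was tested with an interaction term over all 12 libraries. None of the 8 genes and 0% of the 13752 genes tested were called by edgeR with or without the block (97 and 272 genes at an unadjusted p under 0.05, and 0 higher and 1 lower by DESeq2). The fitted differences of the response, cKO minus CD18fl/fl, ran from -0.63 for Tfrc to 0.74 for Slc40a1 on the log2 scale. The call that Slc11a2 received in CD18fl/fl and not in cKO cells without the block is therefore not a shown difference between genotypes.

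The summed and relative levels of the iron genes were then compared within single libraries. Ferritin (Fth1 and Ftl1) took 2.53, 3.10 and 5.38% of all gene reads in unstimulated and 3.98, 5.08 and 6.18% in LPS-treated CD18fl/fl cells, and 1.48, 2.93 and 2.87% and 2.45, 4.05 and 3.47% in cKO cells. The share was higher with LPS in all 3 pairs of each genotype and lower in cKO cells in all 3 pairs of each condition, and all of these groups overlapped. A share of gene reads is a total-read scale: on the TMM scale replicate 2 without LPS was higher in cKO cells for Fth1 (log2 difference 0.57) and Ftl1 (0.029), so the direction of that pair depends on the scaling. In two-sided exact permutation tests the difference was p = 0.3 for both LPS responses, 0.4 for genotype without and 0.2 with LPS, where 3 libraries against 3 cannot go below 0.1 (0.45, 0.45, 0.533 and 0.4 adjusted over the 12 tests of this kind).

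The balance of heavy to light chain was compared next. The ratio of Fth1 to Ftl1 reads had a geometric mean of 0.968 in unstimulated and 1.39 in LPS-treated CD18fl/fl cells, with no overlap (exact permutation p = 0.1, the smallest this design allows, 0.4 adjusted). In cKO cells the geometric mean was 1.07 without and 2.01 with LPS, where the groups overlapped (exact permutation p = 0.2). All 3 pairs were higher with LPS in both genotypes. The ratio of exporter to importer, Slc40a1 to Tfrc reads, passed no test: its geometric mean was 0.306 and 0.621 in CD18fl/fl and 0.118 and 0.617 in cKO cells without and with LPS, higher with LPS in all 3 pairs of both, with exact permutation p of 0.5 and 0.2. Without LPS this ratio was lower in cKO cells in all 3 pairs (log2 difference -1.38, exact permutation p = 0.2), and with LPS the log2 difference was -0.0088 (exact permutation p = 1).

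**Figure D3:**
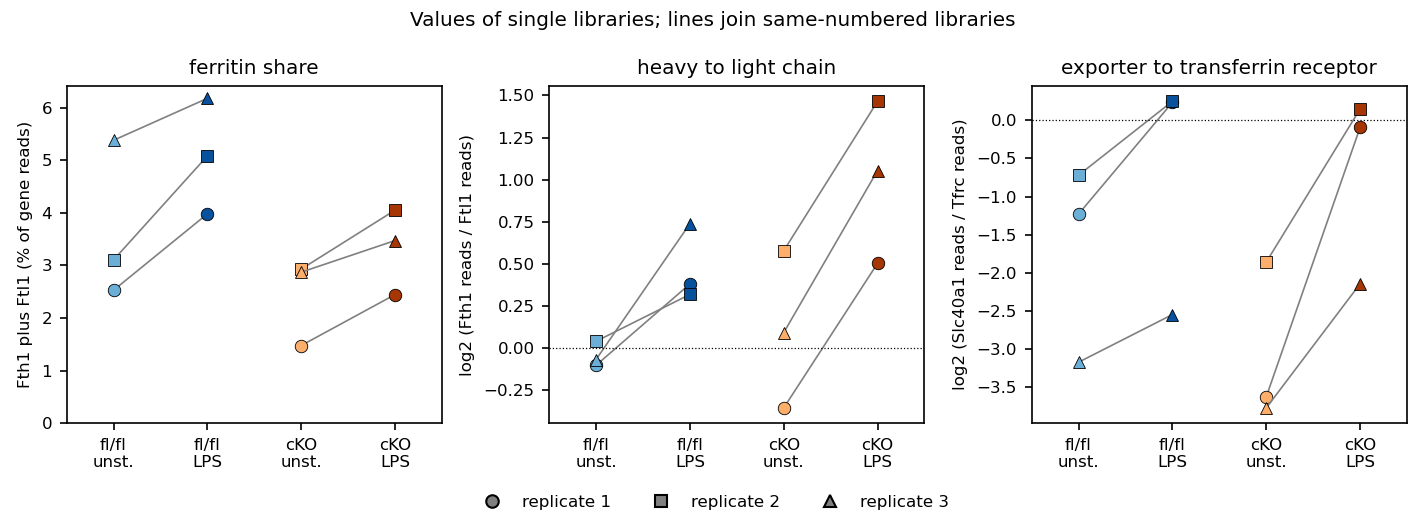
Share of gene reads taken by ferritin (percent), log2 ratio of Fth1 to Ftl1 reads and log2 ratio of Slc40a1 to Tfrc reads in each library, with lines joining same-numbered libraries of a genotype. The lines of the Fth1 to Ftl1 ratio go up from unstimulated to LPS in all 3 pairs of both genotypes.

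The other genes of iron and heme metabolism were followed as a list of 59 genes in 8 roles, of which 49 could be tested in CD18fl/fl cells and 51 in cKO cells for the LPS response. In CD18fl/fl cells 3 were called (9 with the block, 4 higher and 5 lower) and in cKO cells 4 (13 with the block, 5 higher and 8 lower). Over all genes 3.89% (12.8% with the block) were called in CD18fl/fl and 3.99% (20.2%) in cKO cells. In both genotypes the called genes included Hmox1, the enzyme that breaks down heme and frees its iron. In CD18fl/fl cells Hmox1 went from 94.7, 132 and 181 CPM to 1062, 1583 and 633 CPM (log2 fold change 3.01, SE 0.44, adjusted p = 0.0200), and in cKO cells from 45.1, 138 and 107 CPM to 486, 791 and 544 CPM (2.59, SE 0.46, adjusted p = 0.0339), with no overlap in either.

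In CD18fl/fl cells Cp (ceruloplasmin, a ferroxidase that works with ferroportin) rose from 0.916, 0.376 and 0.588 CPM to 4.11, 3.64 and 3.20 CPM (log2 fold change 2.54, adjusted p = 0.0478). In cKO cells Cp was at 0.178, 0.0333 and 0.260 CPM without and 1.62, 0.943 and 2.20 CPM with LPS (3.27, adjusted p = 0.112, or 0.0504 with the block). The ferrireductase Steap3, which reduces iron in the endosome ahead of DMT1, fell from 8.49, 11.4 and 4.46 CPM to 0.931, 0.818 and 1.75 CPM (-2.78, adjusted p = 0.0402). In cKO cells Steap3 was called lower with the block (-3.54, adjusted p = 0.0323) and not without it (-3.41, 0.0659).

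Hamp and Lcn2 were called higher in cKO cells. Hamp, which encodes hepcidin, the hormone that causes ferroportin to be degraded, held 0 reads in all 3 unstimulated cKO libraries and 78, 55 and 175 reads after LPS, at least 38.5-fold higher than the floor of 3 reads per library (adjusted p = 0.0248). In CD18fl/fl cells Hamp held 0, 8 and 0 reads without and 64, 55 and 99 reads with LPS and was called with the block (adjusted p = 0.0453). Lcn2 (lipocalin 2, which captures bacterial siderophores) rose in cKO cells from 3.67, 3.47 and 0.810 CPM to 47.5, 51.2 and 51.1 CPM (log2 fold change 4.196, SE 0.57, adjusted p = 0.0197). Unstimulated CD18fl/fl libraries already held 68.8, 6.14 and 15.7 CPM of Lcn2 and the LPS-treated ones 105, 65.6 and 253 CPM (log2 fold change 2.23, adjusted p = 0.203, or 0.0567 with the block). Unstimulated replicate 1, the highest of its group, was also the library with the highest sum of neutrophil markers (1326.5 CPM, against 8.90 CPM in the lowest library of that group). Lcn2 is a known neutrophil granule gene, and the part of those markers in its level was not tested.

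Cd163, the scavenger receptor for hemoglobin and itself 1 of the macrophage markers, held 52, 52 and 51 reads in unstimulated cKO libraries and 0 in all with LPS, at least 14.3-fold lower (adjusted p = 0.0386). In CD18fl/fl cells its reads went from 231, 223 and 14 to 0 in all, at least 43.5-fold lower (adjusted p = 0.0601, or 0.0156 with the block). Among the genes of heme synthesis 0 of 8 were called in either LPS response, with or without the block. Each of the calls without the block was lost when replicate 1 or 2 of either group was left out, with adjusted p up to 0.197 in CD18fl/fl and 0.157 in cKO cells, those of Cp in CD18fl/fl and of Hmox1 and Cd163 in cKO cells also without the unstimulated replicate 3. In replicates 1 and 2 alone 25 listed genes were called in CD18fl/fl and 8 in cKO cells, and the share over all genes in that fit was not counted.

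Between genotypes, 0 of the 49 listed genes tested without LPS and 0 of 47 with LPS were called without the block, and 12 and 9 with it, beside 0% of all genes without the block in both and 20.2% and 10.1% with it. Of the 11 genes listed under iron-sulfur cluster assembly, 3 (Hscb, Isca2 and Cisd2) were called higher in cKO cells without LPS. With LPS 4 were, and 0 were called lower in either condition. Over all genes 1555 of 12876 and 869 of 12441 were called higher. The calls without LPS that the length correction ended are given below. Without LPS the 4 called genes with the largest blocked rises over the whole list were Cisd2, an iron-sulfur protein of the endoplasmic reticulum (1.15, adjusted p = 0.00416), Hscb, a co-chaperone of cluster transfer (0.89, 0.00663), Blvra, which reduces biliverdin (0.80, 0.00873), and Urod, a heme synthesis enzyme (0.68, 0.0310). The largest falls among called genes were those of Lcn2 (-3.08, 0.0199), the heme-hemopexin receptor Lrp1 (-1.15, 0.0333), the mitochondrial iron importer Slc25a37 (-0.92, 0.0433) and the heme-binding repressor Bach1 (-0.61, 0.0337). Lcn2 was highest in CD18fl/fl replicate 1 (68.8, 6.14 and 15.7 CPM), the library with the most neutrophil markers, whose part was not tested. Leaving out single libraries gave Lcn2 values from -3.96 to -1.97 without the block.

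With LPS, Hscb (1.09, adjusted p = 0.00931), Cisd2 (1.00, 0.00987) and Isca2 (0.62, 0.0392) were higher in cKO cells in the blocked fit. Lower were Bach1 (-0.85, 0.0244), Hmox1 (-0.81, 0.0472), the heme transporter Slc48a1 (-0.74, 0.0304) and Trf, which encodes transferrin (-0.69, 0.0298). Adding the correction for transcript length to the block left the calls of Cisd2 and Lcn2 without LPS (1.31, 0.00715 and -3.58, 0.0170) and of Cisd2, Hmox1, Slc48a1 and Trf with LPS, the last at an adjusted p just under 0.05. It ended those of Hscb (0.18, 0.430 without and 0.55, 0.0681 with LPS), Urod (0.29, 0.261), Blvra (0.49, 0.0512) and Slc25a37 (-0.73, 0.110). Also ended were those of Lrp1 (-1.03, 0.0513), Isca2 (-0.00090, 0.998 without and 0.11, 0.693 with LPS) and Bach1 (-0.36, 0.138 without and -0.66, 0.0694 with LPS).

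**Figure D4:**
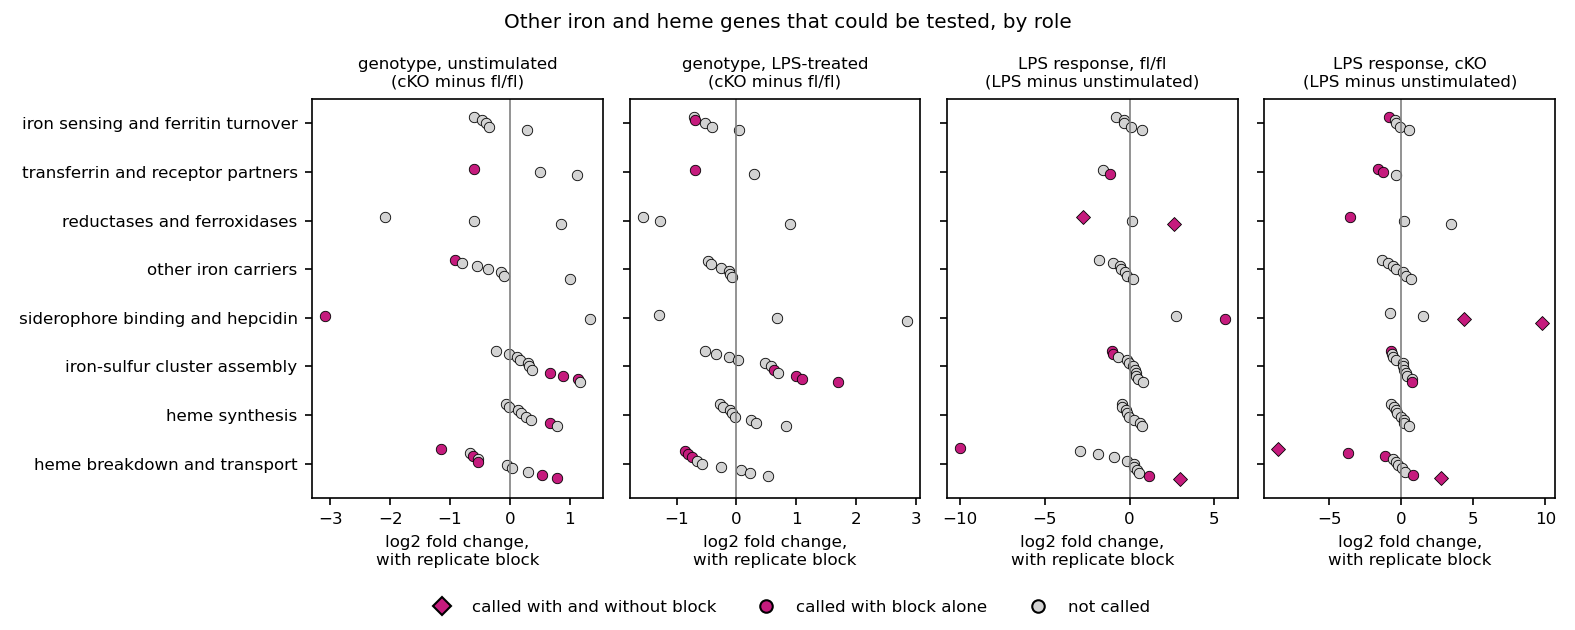
Log2 fold changes from the fit with the replicate block of the listed iron and heme genes that could be tested, grouped by role on the vertical axis, in the 4 comparisons, with genes called at an adjusted p under 0.05 marked. In the LPS responses the heme gene Hmox1 lies far right of 0 in both genotypes, while genes of heme synthesis are unmarked.

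Likeness of pattern was described by Pearson's r of log2 CPM over the 12 libraries, among 13752 genes. The r values are high partly because all genes share the same libraries, LPS treatment and replicate 3, and they say nothing of shared control. The genes most like the ferritin chains were Tmed10 (r = 0.934), Tbk1 (0.932) and E230032D23Rik (0.925) for Fth1, and F10 (0.935), Rnasek (0.934) and Best1 (0.929) for Ftl1, with no gene in common. Trib2 (0.975), Dnajc25 (0.967) and Fuca2 (0.954) followed Tfrc, and Trim6 (0.980), Stat5b (0.977) and Abcc5 (0.974) followed Slc11a2. For Slc11a1 the nearest were Rora (0.957), Inpp5j (0.957) and Zfand3 (0.952). Slc40a1, whose replicate 3 was low throughout, was nearest to Sirpb1b (0.980), Mthfd2 (0.979) and Sirpb1a (0.977). Slc39a14 was nearest to Leo1 (0.952), Mkrn2 (0.949) and BC048403 (0.940), and Ireb2 to Olfr56 (0.953), Cfl2 (0.941) and Gm12185 (0.936). Among the 8 genes themselves, Tfrc and Slc11a2 ran most opposite (r = -0.918), Fth1 and Ireb2 ran most alike (0.866), and both ferritin chains had r = 0.727.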

How the data were processed

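The 12 libraries were processed by the authors in CLC Genomics Workbench with default settings, and the deposited tables give, for each gene and library, counts of total and unique gene reads together with TPM values. The study's methods name GRCm39 as the genome, as the gene coordinates in the tables do, whereas the submitters' processing notes name GRCm38. The authors compared groups with DESeq2, and no comparison values of theirs were used. Members and gene lists were chosen with earlier results of these data known.

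Total gene reads were tested with edgeR 4.0.16 (quasi-likelihood test, TMM scaling, filterByExpr with a minimum count of 10, R 4.3.3) on the 2 groups of each comparison, or on all 12 libraries for the interaction, p-values adjusted over every gene tested (Benjamini-Hochberg), and a threshold of 0.05. CPM values use TMM library sizes, and TPM, deposited per library, were averaged. Libraries held 29689149 to 34037178 gene reads. Over all genes the spread between libraries of a group exceeded counting error (chi-square per degree of freedom 43.5 to 542). The floor for a count of 0 was 3 reads. Same-numbered libraries of the groups compared had correlated deviations from the group means (r from 0.265 to 0.716). For other numbers the median was -0.382 and the maximum 0.334, and pairs of a replicate 1 with a replicate 2 were all positive. In the LPS response of CD18fl/fl cells, unstimulated replicate 1 and LPS replicate 2 gave 0.278, against 0.265 between the replicates 2. The check thus sets replicate 3 apart but does not show that numbers 1 and 2 are matched. The labels do not say what a number stands for. The fit without the block was kept as planned and the blocked fit is an alternative. Other alternatives were DESeq2 1.42.0, RLE or total-read scaling, other filters, unique reads, a fit over all groups, a length offset and leaving out each library. Unique reads with the block, and replicates 1 and 2 alone, were added after seeing the data. Single values were tested by exact permutation (scipy 1.17.1). The fits were tested on simulated data. Iron-responsive elements were searched in GENCODE vM39 UTRs of GRCm39, and ferritin copies with BLAST+ 2.17.0 (E at most 1e-10). Named genes were the 8 members, Itgb2, all ferritin rows, up to 4 listed iron or heme genes per direction and comparison with the largest called change (from the blocked fit where the main fit called none), and the 3 genes most like each member. Marker lists were those of DC, macrophages, neutrophils, B cells, T cells, mast cells and basophils, erythroid cells and proliferation. One listed gene is not reported here.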

Additional observations from a re-analysis of the deposited data

How the results depend on the processing

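With 3 libraries a group, replicate 3 apart from the others and reads of Ftl1 shared with its copies, depth limited the results of the 8 genes less than the spread between libraries. Listed genes such as Hamp, Cp and Cd163 held few or no reads in some libraries. Of the 8 iron genes, the number called was 0, 0, 2 and 1 (genotype without LPS, genotype with LPS, LPS in CD18fl/fl, LPS in cKO). With the replicate block, which treats same-numbered libraries as pairs, it was 2, 2, 4 and 4. The length offset and block, or unique reads and block, gave the same numbers. With total-read scaling and block it was 5, 4 and, in cKO, 4. Beside the calls gained with the block it changed no other call of the 8 genes. Total-read scaling gave 1 in CD18fl/fl, DESeq2 3 and no filter or a fit over all 12 libraries 2 in cKO, and replicates 1 and 2 alone 6 and 3 in the LPS responses. Leaving out single libraries gave 0 to 3 in CD18fl/fl and 0 to 2 in cKO cells. Of the 59 listed genes 0, 0, 3 and 4 were called, against 12, 9, 9 and 13 with the block, 8, 6, 8 and 13 with length offset and block, 18, 15, 7 and 17 with total-read scaling and block, 12, 10, 9 and 14 with unique reads and block, 4, 1, 8 and 9 by DESeq2, 8, 4, 25 and 8 in replicates 1 and 2 alone, and 9 and 7 (LPS responses) in the fit over all libraries. Leaving out single libraries gave 0 to 12 in CD18fl/fl and 0 to 5 in cKO cells.

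No log2 fold change that was called without the block turned sign. Uncalled ones did. For genotype without LPS these were Fth1 (0.23 in replicates 1 and 2 alone), Ireb2 (-0.29 with total-read scaling, with and without block) and Isca2 (-0.016 with length offset, -0.00090 with block too). For genotype with LPS they were Fth1 (0.036 in replicates 1 and 2 alone), Tfrc (-0.17 with total-read scaling, also with block), Slc40a1 (-0.20 with that scaling, -0.19 with block too, -0.02 with no filter) and Ireb2 (-0.23, -0.24 with block too, -0.012 in replicates 1 and 2 alone). For LPS in CD18fl/fl cells Slc39a14 did with total-read scaling (-0.25, -0.22 with block too), and in cKO cells so did Ftl1 (-0.078, -0.048), Slc40a1 (-0.10 with block) and Slc39a14 (-0.12, -0.016). In the interaction these were Fth1 (-0.016 by DESeq2 and with RLE scaling, -0.15 in replicates 1 and 2 alone), Slc11a2 (-0.037 with length offset, -0.062 with block too), Slc39a14 (-0.00035, -0.0059) and Ireb2 (-0.051 by DESeq2 and RLE, -0.033 with a minimum count of 50, -0.0034 with block, -0.16 with length offset with or without block, -0.0065 with unique reads and block, -0.13 in replicates 1 and 2 alone). The cause was not tested.

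Leaving out single libraries turned the sign of values in these ranges. Genotype without LPS: Fth1 -0.44 to 0.25, Ftl1 -0.50 to 0.027, log2 Fth1 to Ftl1 ratio -0.089 to 0.38. Genotype with LPS: Fth1 -0.48 to 0.10, Tfrc -0.047 to 0.26, Slc40a1 -0.48 to 0.52, Ireb2 -0.12 to 0.15, log2 Slc40a1 to Tfrc ratio -0.94 to 0.72. LPS in CD18fl/fl: Slc40a1 -0.84 to 0.059, Slc39a14 -0.31 to 0.55. LPS in cKO: Ftl1 -0.027 to 0.25, Slc40a1 -0.24 to 0.84, Slc39a14 -0.22 to 0.49. Interaction: Fth1 -0.40 to 0.39, Slc11a1 -0.26 to 0.50, Slc11a2 -0.13 to 0.46, Slc39a14 -0.48 to 0.49, Ireb2 -0.21 to 0.14.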
